A study of Bos taurus with 4 samples.

Results

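The peroxiredoxin and thioredoxin system was taken as 10 genes: the peroxiredoxins PRDX1, PRDX2, PRDX3, PRDX4, PRDX5 and PRDX6, the thioredoxins TXN and TXN2, the thioredoxin reductase TXNRD1 and the thioredoxin-interacting protein TXNIP. The members were every probe of the bovine embryo array that the platform table assigns to one of these symbols, which gave 27 of 43794 probes and 10 of 15216 named genes. All of the genes had at least 1 probe bright enough to test. Of the 27 probes, 23 were tested and 4 were left out for low signal.

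RNA came from expanded blastocysts that had grown in culture from cryopreserved compact morulae, with 4 pools in the vitrified group and 4 in the slow-frozen group. The embryos of both groups were produced in vitro from abattoir oocytes, the labels give the breed as beef, and they put 7 blastocysts in a pool and collection at 7 days after fertilisation, while the methods allow smaller pools and give that day for the morulae. Vitrification used ethylene glycol with dimethyl sulfoxide on a cryotop carrier, a fast cooling without ice, and slow freezing used glycerol in straws cooled at a controlled rate. Only morulae that reached the expanded stage contributed RNA, so survival and method cannot be told apart, and unfrozen blastocysts are not analysed here. In both groups replicates 1 and 2 carried the dye Cy5 and replicates 3 and 4 carried Cy3. According to the methods all vitrified pools were on one slide and all slow-frozen pools on another, so slide and group cannot be told apart. The methods also state that each production cycle gave 1 tube per treatment, so a vitrified and a slow-frozen pool can share a cycle. Which pools do is not stated, and the test treated the 8 pools as independent.

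Peroxiredoxins are abundant enzymes that reduce hydrogen peroxide and organic peroxides with a reactive cysteine. Most of them are returned to the reduced state by thioredoxin, a small protein with a pair of active cysteines, and thioredoxin is in turn reduced by thioredoxin reductase with electrons from NADPH. TXNIP binds reduced thioredoxin and inhibits it. Preimplantation embryos are held to be sensitive to peroxides, and freezing, thawing and culture are among the handling steps known to raise them.

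Levels are log2 normalised intensities, and a difference is the vitrified mean minus the slow-frozen mean, so that 1 on this scale is a 2-fold difference. Median raw intensity was 109 to 384 per pool, and in a pool 63.3% to 74.1% of probes exceeded its negative controls. Over all probes, vitrified replicate 3 and slow-frozen replicate 2 lay farthest from the rest (56.6 and -34.3 on a first component with 24.8% of the variance). Of the 23 member probes tested, 22 exceeded the negative controls in all 8 pools. The brightest member spot read 56037, and 0 member spots were saturated.

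No member gene was called different between the groups. With limma's p-values adjusted by Benjamini-Hochberg over 30034 probes, 0 of the 23 member probes passed at 0.05, against 1 of all probes (0.00333%). At an unadjusted p under 0.05 (limma) there were 4 member probes, 2 with a higher and 2 with a lower vitrified mean, where 4.81% of all probes reached that level (2.44% higher and 2.36% lower). These 4 probes belonged to 3 genes: PRDX4 and TXNIP had higher vitrified means and PRDX5 had a lower one. With the brightest probe standing for each gene, 3 of 10 members and 5.93% of all genes tested were past that level, and the excess was not tested. Leaving out slow-frozen replicate 3 took the count of 3 genes to 0. Leaving out slow-frozen replicate 1, vitrified replicate 2 or vitrified replicate 4 took it to 1. Without slow-frozen replicate 1 that gene was TXNRD1, which is not among the 3. It was PRDX4 without vitrified replicate 2 and PRDX5 without vitrified replicate 4. Several probes measure 1 transcript and are not separate observations. The thresholds named in the methods, a fold of at least 2 with an unadjusted p under 0.05, were reached by 0 member probes and by 0.190% of all probes.

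The differences of the 10 genes had no common direction, with 5 above 0 and 5 below. Their median was -0.0028, against 0.0096 for all 11728 genes tested. The median size of the difference, sign ignored, was 0.127 for the members and 0.123 for all genes. The farthest any member probe lay from 0 was 0.58, the TXNIP probe. The median residual SD between pools was 0.29 over the 23 member probes tested (from 0.12 to 0.46) and 0.24 over all probes tested.

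Marker genes of the blastocyst's tissues also had unequal means in the 2 groups, beside every member described here. In pooled embryos, fewer cells of a type and less RNA per cell cannot be told apart. Of 12 tested markers of the trophectoderm, the outer epithelium, 11 had a lower vitrified mean. Their summed intensity was 129310 to 158047 in the vitrified and 172259 to 184837 in the slow-frozen pools, without overlap. Bright markers such as KRT8 (mean level 15.62) carry this sum, and dim ones such as CDX2 (8.20) add little to it. The mean log2 level of the 12 markers was 11.20 to 11.50 in the vitrified and 11.70 to 11.96 in the slow-frozen pools. How often other sets of genes separate in this way was not tested. Of these 12 markers, 0 passed the adjustment. At an unadjusted p under 0.05 (limma) there were 4 of the 12, all lower, where 5.93% of all genes tested reached that level. The brightest probes of DAB2, TFAP2A and PTGS2 gave -0.69, -0.95 and -1.22. The other probes of DAB2 gave 0.03, -0.42 and 0.39, that of TFAP2A -0.22 and those of PTGS2 -1.01 and -0.69. The paper already reports PTGS2 as lower after vitrification, against unfrozen controls. The markers were listed with earlier results known, so neither their count nor their separation is independent support. Of 7 tested markers of the inner cell mass, 5 had a higher vitrified mean, with sums of 20536 to 31113 and 18951 to 21222. NANOG (-0.08) and LIN28B (-0.36) had a lower one. An unadjusted p under 0.05 (limma) was found for 3 of the 7, all higher, and 0 passed the adjustment. Of the hypoblast markers GATA6 and SOX17 were not tested. The other 6 split, 3 with a higher and 3 with a lower vitrified mean (median 0.09). HAND1 of the trophectoderm and FGF4 of the inner cell mass were not tested either. Of the cumulus or granulosa markers HAS2, FOXL2 and AMH were too dim to test and the other 5 had sums of 937 to 1070 and 1045 to 1110, while those of blood cells had sums of 1342 to 1772 and 1421 to 1772. The part of these markers in the differences of PRDX5, PRDX4, TXNRD1 and TXNIP was not tested.

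**Figure D1:**
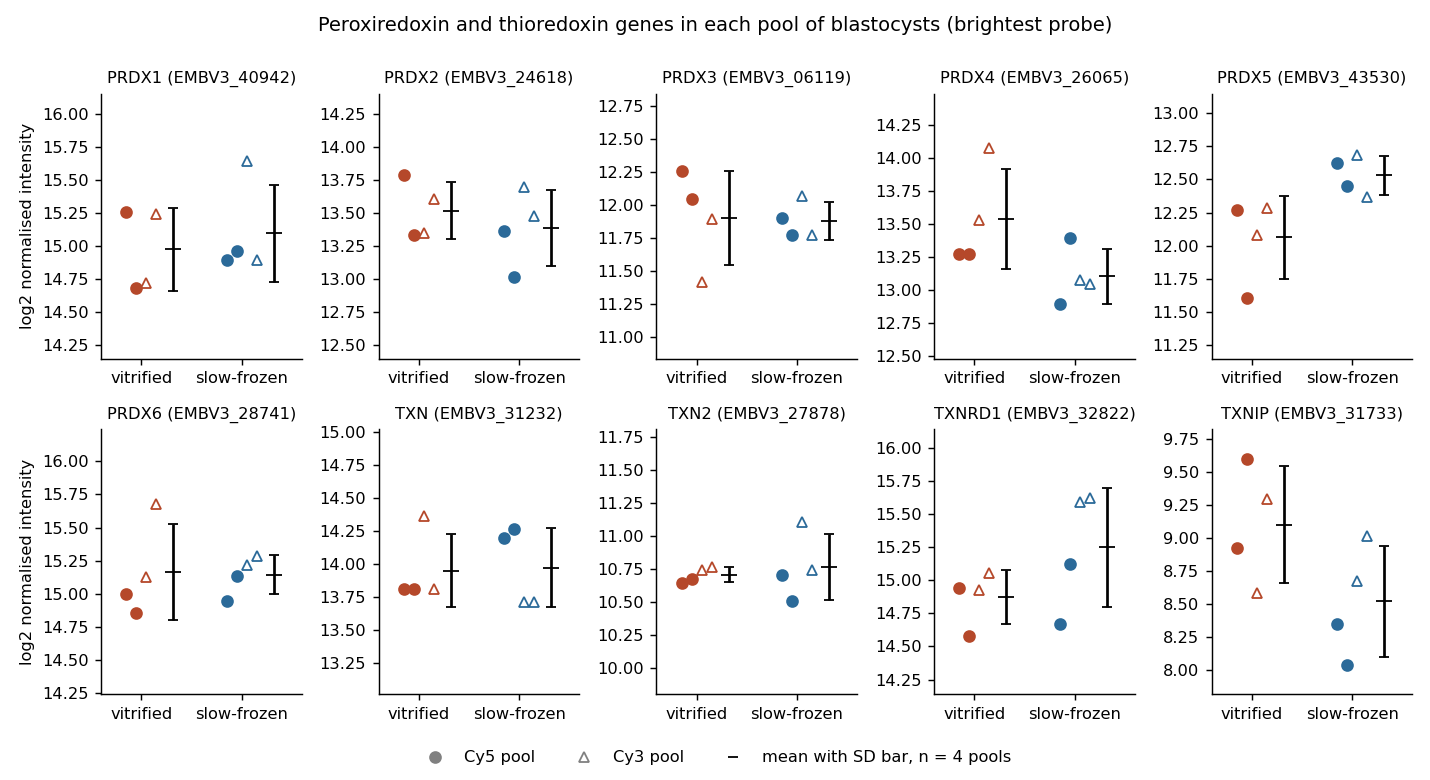
Log2 normalised intensity (vertical axis) of the brightest probe of each gene in the 4 vitrified and 4 slow-frozen pools, 1 point per pool (filled circles Cy5, open triangles Cy3), with the group mean and an SD bar (n = 4). Every vertical axis spans the same number of log2 units around its own gene. PRDX5 is the only gene whose groups do not overlap, while in PRDX4 and TXNIP most vitrified pools lie above most slow-frozen pools.

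PRDX5 had the smallest p of the members. It is an atypical peroxiredoxin that works as a monomer and is found in mitochondria, peroxisomes and the cytosol. In vitrified replicates 1 to 4 its brighter probe, EMBV3_43530, measured 12.27, 11.61, 12.08 and 12.28, and in slow-frozen replicates 1 to 4 it measured 12.62, 12.45, 12.69 and 12.36. Every vitrified pool lay below every slow-frozen pool, with the gap between vitrified replicate 4 and slow-frozen replicate 4 the narrowest. Such a separation in this direction was found for 0.982% of all probes, and for 2.47% in either direction. The means were 12.06 ± 0.32 and 12.53 ± 0.15 (SD, n = 4), a difference of -0.47 ± 0.18 (SE), or 1.38-fold (95% interval of the log2 difference -0.86 to -0.08, limma adjusted p = 0.945).

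The other PRDX5 probe, EMBV3_38466, measured 11.52, 11.30, 11.78 and 11.95 in the vitrified pools and 11.76, 11.82, 12.24 and 12.00 in the slow-frozen pools. Here the groups overlapped, and in both groups the Cy3 pools read higher than the Cy5 pools. The difference was -0.32 ± 0.14 (SE; limma adjusted p = 1.0), and the dye term of this probe had an unadjusted p under 0.05. Both probes gave a lower vitrified mean within Cy5 (-0.60 and -0.38) and within Cy3 (-0.34 and -0.26). Over the 8 pools, with dye means removed, they followed each other with r = 0.94. Without vitrified replicate 2, the lowest pool, the difference of the brighter probe was -0.31 and its unadjusted p was above 0.05.

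PRDX4 is the peroxiredoxin of the endoplasmic reticulum, where it couples peroxide reduction to the folding of secreted proteins. Its single probe, EMBV3_26065, measured 13.27, 13.27, 13.53 and 14.07 in vitrified replicates 1 to 4 and 12.89, 13.39, 13.08 and 13.04 in slow-frozen replicates 1 to 4. Slow-frozen replicate 2 was the exception in its group and lay above vitrified replicates 1 and 2. The means were 13.54 ± 0.38 and 13.10 ± 0.21 (SD, n = 4), so the vitrified mean was 0.44 ± 0.19 (SE) higher, or 1.35-fold (95% interval of the log2 difference 0.01 to 0.86, limma adjusted p = 1.0). The difference was 0.13 among the Cy5 pools and 0.74 among the Cy3 pools. Vitrified replicate 4 set the upper end: without it the difference was 0.27 and the unadjusted p was above 0.05, and without slow-frozen replicate 2 the difference was 0.60. With a replicate block the unadjusted p of PRDX4 was also above 0.05, and the difference was again 0.44.

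TXNIP, the inhibitor of thioredoxin, is also an alpha-arrestin that lowers glucose uptake, and its gene is switched on by glucose. The tested probe, EMBV3_31733, measured 8.93, 9.60, 8.58 and 9.29 in vitrified replicates 1 to 4 and 8.35, 8.04, 8.68 and 9.02 in slow-frozen replicates 1 to 4. Vitrified replicate 2 was the highest pool and slow-frozen replicate 2 the lowest, and the groups overlapped through vitrified replicates 1 and 3 and slow-frozen replicates 3 and 4. The means were 9.10 ± 0.44 and 8.52 ± 0.42 (SD, n = 4), a difference of 0.58 ± 0.25 (SE), or 1.49-fold (95% interval of the log2 difference 0.02 to 1.14, limma adjusted p = 1.0). Nearly all of it lay in the Cy5 pools, at 1.07, against 0.09 in the Cy3 pools.

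The TXNIP probe had the widest spread of the member probes (residual SD 0.46) and was dim, with raw intensities of 217 to 863. The unadjusted p stayed under 0.05 in 2 of the 8 fits that left out 1 pool (limma), and the difference ranged from 0.35 without vitrified replicate 2 to 0.82 without vitrified replicate 3. The other TXNIP probes were left out of the test. EMBV3_30391 and EMBV3_37924 exceeded the negative controls in 2 pools each and EMBV3_43170 in 0, so TXNIP rests on 1 probe.

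TXNRD1, the cytosolic thioredoxin reductase, is a selenoprotein that keeps thioredoxin reduced. Its brighter probe, EMBV3_32822, measured 14.94, 14.58, 14.93 and 15.05 in vitrified replicates 1 to 4 and 14.67, 15.12, 15.59 and 15.62 in slow-frozen replicates 1 to 4. The slow-frozen Cy3 pools stood above all others, while slow-frozen replicate 1 lay within the vitrified range. The vitrified mean of 14.88 ± 0.20 was lower than the slow-frozen mean of 15.25 ± 0.45 (SD, n = 4) by a difference of -0.37 ± 0.17 (SE; 1.30-fold, limma adjusted p = 1.0), and its unadjusted p lay just above 0.05. It was -0.13 within Cy5 and -0.62 within Cy3, and the dye term of this probe had an unadjusted p under 0.05.

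The second TXNRD1 probe, EMBV3_02308, gave -0.27 ± 0.22 (SE), with a difference of -0.57 within Cy5 and 0.04 within Cy3. The probes of this gene agreed in direction but hardly followed each other over the pools (r = 0.07, dye means removed). Leaving out slow-frozen replicate 1 took the brighter probe to -0.51, leaving out vitrified replicate 1 took it to -0.50, and the unadjusted p was then under 0.05 in both fits.

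**Figure D2:**
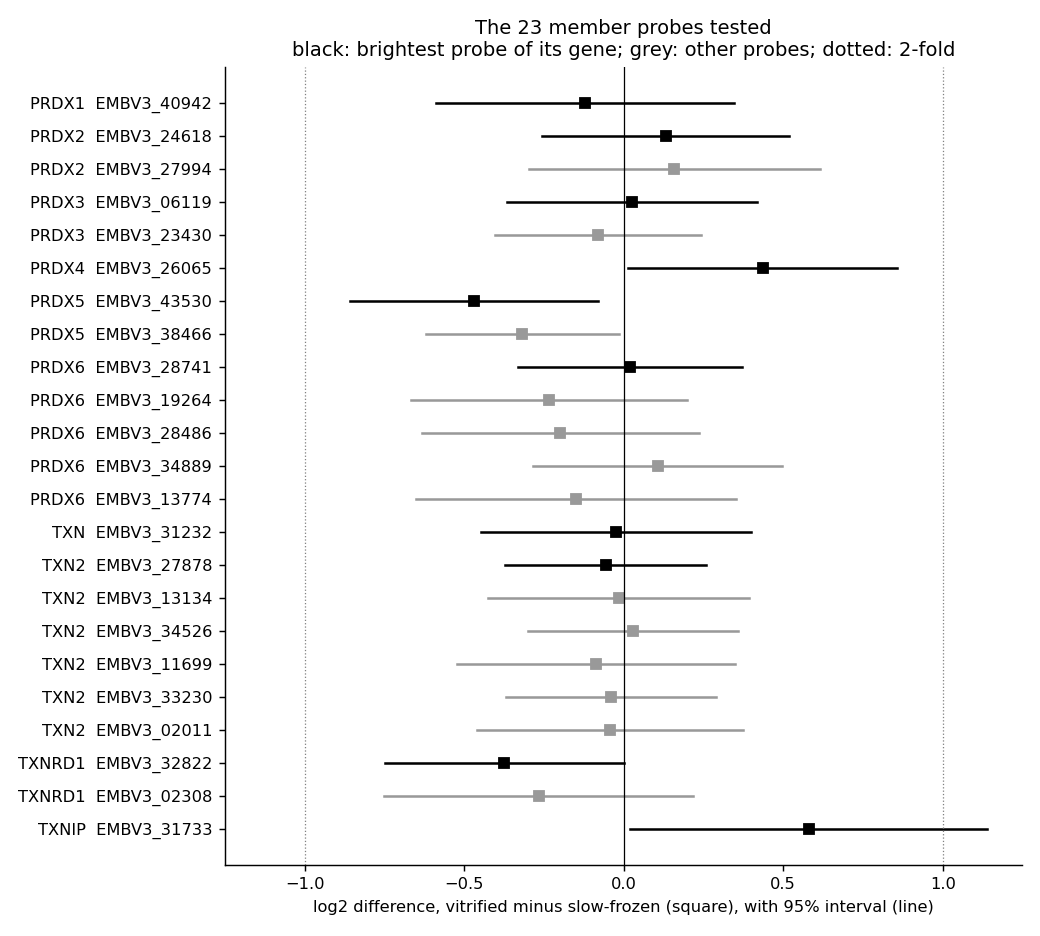
Log2 difference, vitrified minus slow-frozen (horizontal axis), with its 95% interval for each of the 23 member probes tested; black squares mark the brightest probe of a gene and grey squares its other probes. The intervals of PRDX4, TXNIP and both PRDX5 probes exclude 0 before adjustment, that of TXNRD1 EMBV3_32822 ends at 0, and all the others include it.

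The cytosolic peroxiredoxins PRDX1 and PRDX2 are typical 2-Cys enzymes, which act as dimers, and their means were close in the 2 groups. PRDX1, on its single probe EMBV3_40942, measured 15.25, 14.68, 14.71 and 15.24 in vitrified replicates 1 to 4 and 14.89, 14.96, 15.64 and 14.89 in slow-frozen replicates 1 to 4. The slow-frozen pools were tightly grouped except for replicate 3, the highest pool of all. The difference was -0.12 ± 0.21 (SE), with an interval of -0.59 to 0.34 that allows up to a 1.50-fold lower or a 1.27-fold higher vitrified level. The difference had opposite signs in Cy5 (0.04) and in Cy3 (-0.29).

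PRDX2 spanned 13.34 to 13.79 in the vitrified pools and 13.02 to 13.70 in the slow-frozen pools on its brighter probe, EMBV3_24618. The difference was 0.13 ± 0.18 (SE; interval -0.25 to 0.52), and the second probe, EMBV3_27994, gave 0.16 ± 0.21 (SE). The 2 probes followed each other with r = 0.67. Slow-frozen replicate 2 was the lowest pool on both.

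PRDX3 is the mitochondrial 2-Cys peroxiredoxin. On the probe EMBV3_06119 it spanned 11.42 to 12.26 in the vitrified pools and 11.77 to 12.07 in the slow-frozen pools, so the slow-frozen range lay inside the vitrified one. The difference was 0.03 ± 0.18 (SE; interval -0.37 to 0.42). Vitrified replicate 3 was the lowest pool and vitrified replicate 1 the highest. A dim second probe, EMBV3_23430, which exceeded the negative controls in 5 of 8 pools, gave -0.08 ± 0.15 (SE). The probe EMBV3_33522 exceeded them in 0 pools and was left out.

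PRDX6 is the 1-Cys peroxiredoxin, which relies on glutathione in place of thioredoxin and also acts on oxidised phospholipids. Its brightest probe, EMBV3_28741, spanned 14.86 to 15.68 in the vitrified pools and 14.94 to 15.28 in the slow-frozen pools, a difference of 0.02 ± 0.16 (SE; interval -0.33 to 0.37). Vitrified replicate 4 was the highest pool and vitrified replicate 2 the lowest, so the whole slow-frozen range again fell inside the vitrified range. The other 4 probes gave -0.23, -0.20, 0.11 and -0.15, so the 5 probes split in sign. Pairs of PRDX6 probes correlated over the 8 pools from -0.29 to 0.91, with a median of 0.43.

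TXN encodes the cytosolic thioredoxin, the common electron donor of the 2-Cys peroxiredoxins. Its single probe, EMBV3_31232, measured 13.81, 13.81, 14.36 and 13.81 in vitrified replicates 1 to 4 and 14.20, 14.27, 13.71 and 13.72 in slow-frozen replicates 1 to 4. The group means, 13.95 ± 0.28 and 13.97 ± 0.30 (SD, n = 4), were within 0.03 of each other. Behind them lay opposite differences in the dyes, -0.42 among the Cy5 pools and 0.37 among the Cy3 pools, with slow-frozen replicates 1 and 2 and vitrified replicate 3 as the high pools.

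TXN2, the mitochondrial thioredoxin that serves PRDX3, had the most probes, and all their differences lay within 0.09 of 0. On the brightest, EMBV3_27878, the vitrified pools spanned only 10.65 to 10.77 and the slow-frozen pools 10.51 to 11.11. The difference was -0.06 ± 0.14 (SE; interval -0.37 to 0.26). Over all 6 TXN2 probes the differences ranged from -0.09 to 0.03, and every interval included 0.

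**Figure D3:**
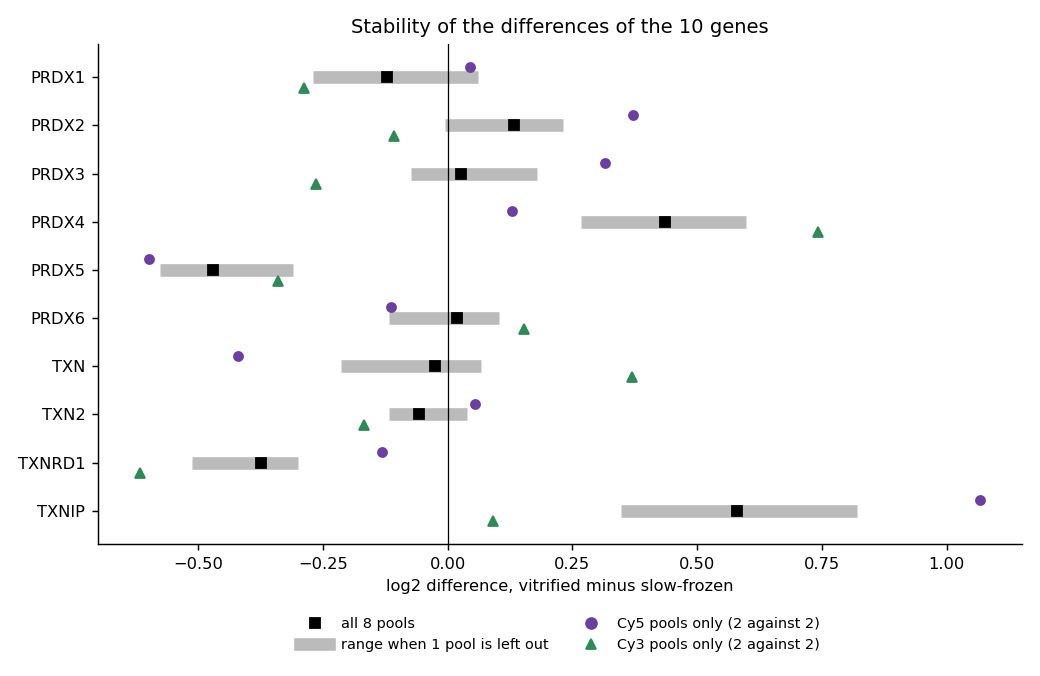
Log2 difference, vitrified minus slow-frozen (horizontal axis), of the brightest probe of each gene from all 8 pools (black squares), over the 8 fits that each left out 1 pool (grey bars), and from the Cy5 pools alone (circles) or the Cy3 pools alone (triangles), 2 against 2. The grey bars of PRDX4, PRDX5, TXNRD1 and TXNIP stay on one side of 0, from 0.27 to 0.60 for PRDX4 and from -0.58 to -0.31 for PRDX5, while those of the other 6 genes cross it.

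The direction was the same in both dyes for 4 of the 10 genes, PRDX4, PRDX5, TXNRD1 and TXNIP, and opposite for the other 6. The dye term itself had an unadjusted p under 0.05 for 4 of the 23 member probes, against 7.28% of all probes, and after adjustment for 0 member probes against 0.0466% (limma). For PRDX4, PRDX5, TXNRD1 and TXNIP, the members with the smallest p, the direction was also the same in all 21 alternative settings. All of these settings reuse the same pools, and several leave the difference unchanged by design. The stable direction is therefore no independent support. The unadjusted p of PRDX5 was under 0.05 in 5 of the 8 fits without 1 pool, that of PRDX4 in 4 and that of TXNRD1 in 2 (limma).

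The members moved from pool to pool in different ways. Of the 10 genes, vitrified replicate 2 was the lowest pool for 4, slow-frozen replicate 2 the lowest for 3 and slow-frozen replicate 3 the highest for 3. With dye means removed, the 45 pairs of genes correlated over the 8 pools with a median r of 0.10. PRDX2 and PRDX3 were closest (r = 0.85), and PRDX3 and TXN were most opposed (r = -0.90). PRDX5 and TXNIP had r = -0.73. These correlations describe 8 pools that share one normalisation, with both groups included.

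The genes of the array whose pattern over the 8 pools was most like that of a member, by Pearson r with dye means removed, are given as a description. For PRDX5 they were NPEPL1 (r = 0.97), ANLN (r = 0.97) and GPC5 (r = 0.96), and for PRDX4 they were HBG (r = 0.997), KIF20B (r = 0.94) and SLC47A2 (r = 0.94). For TXNIP they were ABCF2, ZAP70 and RTN4IP1, each with r = 0.98. For TXNRD1 they were VAT1 (r = 0.97), LRRN2 (r = 0.97) and ASB1 (r = 0.96). The closest gene to PRDX1 was ELMO3 (r = 0.99), to PRDX2 TUBG2 (r = 0.96), to PRDX3 IQGAP3 (r = 0.99), to PRDX6 MXI1 (r = 0.96), to TXN LOC787671 (r = 0.98) and to TXN2 LOC511936 (r = 0.98). They were picked from 11728 genes on 8 pools, so high values were to be found for any gene.

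Around the members, 5 lists of genes that work with them or beside them held 79 genes, of which 70 were tested. Of these, 7 had an unadjusted p under 0.05 (limma), 1 with a higher and 6 with a lower vitrified mean, and 0 passed the adjustment. The count of 7 was 4 without vitrified replicate 1. The background for this count is the 5.93% of all genes tested.

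Thioredoxin partners comprised further reductases, glutaredoxins, thioredoxin-like proteins and enzymes that draw electrons from thioredoxin. Of 27 tested, 15 had a higher and 12 a lower vitrified mean, with a median of 0.02. MSRB1, a selenoprotein that reduces oxidised methionine with the help of thioredoxin, had a difference of -0.60 ± 0.19 (SE). Its other probe gave only -0.08. MAP3K5, the stress kinase ASK1 that thioredoxin binds and holds inactive, had a difference of -0.42 ± 0.16 (SE). It spanned 7.59 to 7.93 in the vitrified and 7.93 to 8.44 in the slow-frozen pools, which did not overlap before rounding. The MAP3K5 probe was dim, with a mean level of 7.98 over the 8 pools. RRM2, a subunit of ribonucleotide reductase, had 0.33 ± 0.17 (SE). The unadjusted p was under 0.05 for MSRB1 and MAP3K5 among the 27 (limma adjusted p = 0.914 and adjusted p = 0.954).

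For TXNIP, the list of related alpha-arrestins and of the glucose-sensing factors that switch it on held 6 tested genes. MLXIPL, the glucose-sensing factor ChREBP, had a difference of -0.21 ± 0.21 (SE), the arrestin ARRDC1 had 0.12 ± 0.16 and MLX, the partner of MLXIPL, had -0.09 ± 0.14. None of the 6 reached an unadjusted p under 0.05, and their median was -0.03, beside the 0.58 of TXNIP. MLXIPL and ARRDC1 were dim, with mean levels over the 8 pools of 7.69 and 7.56, where a difference is hard to detect.

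The NRF2 pathway, which is known to drive TXN, TXNRD1 and PRDX1 under oxidative stress, had 7 of 16 tested genes with a higher and 9 with a lower vitrified mean (median -0.06). MAFG, the small partner of NRF2 on DNA, spanned 9.97 to 10.26 in the vitrified and 10.30 to 10.77 in the slow-frozen pools, a difference of -0.42 ± 0.15 (SE; limma adjusted p = 0.934). KEAP1, which marks NRF2 for breakdown, had -0.36 ± 0.19, and FTH1, a ferritin subunit, had -0.30 ± 0.18 (SE).

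Among 14 other antioxidant enzymes tested, 7 had a higher and 7 a lower vitrified mean (median 0.02). HMOX2, a haem oxygenase that is made constitutively, spanned 9.05 to 9.83 in the vitrified and 10.04 to 10.45 in the slow-frozen pools, with a difference of -0.77 ± 0.19 (SE; limma adjusted p = 0.669). HMOX1, the inducible haem oxygenase, had -0.53 ± 0.21 (SE). Its probe was dim, with a mean level of 7.57 over the 8 pools, where a difference is hard to judge. SESN1, a sestrin that takes part in the stress response, had -0.36 ± 0.15 (SE), while the other SESN1 probe gave 0.05. Of the 7 genes for selenoprotein synthesis, on which TXNRD1 depends, TRNAU1AP, which binds the selenocysteine tRNA, had 0.40 ± 0.17 (SE; limma adjusted p = 0.998). SEPHS1 (0.20) and PSTK (0.21) did not reach that level. The median of the list was 0.18, but leaving out slow-frozen replicate 2 took it to 0.03, leaving out vitrified replicate 3 to 0.06, and leaving out both to -0.07.

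**Figure D4:**
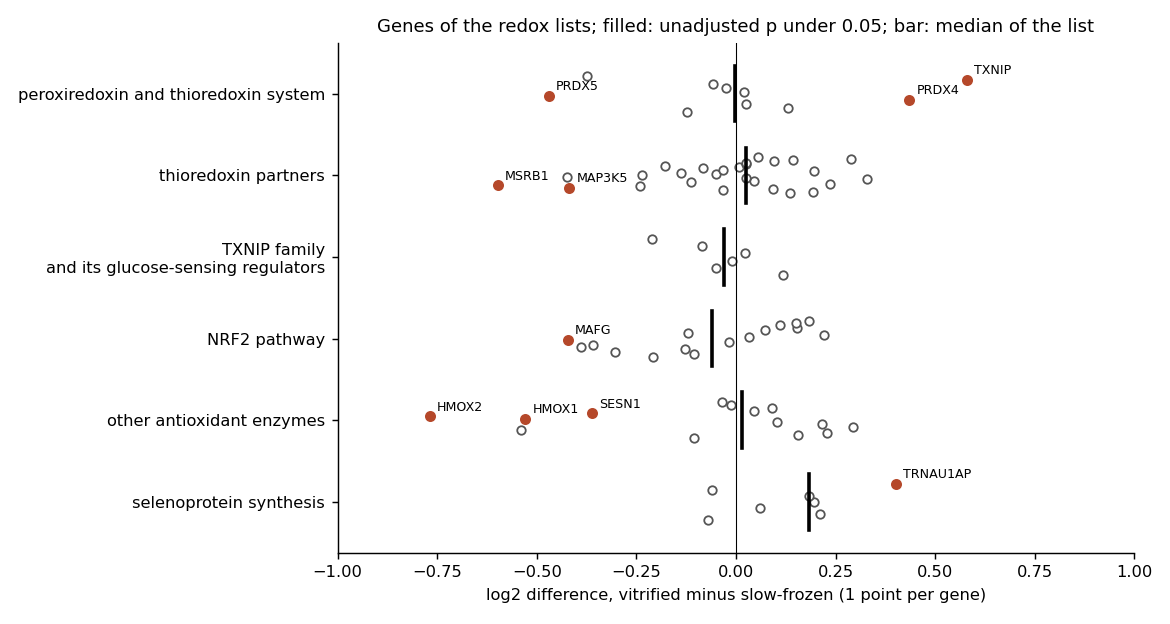
Log2 difference, vitrified minus slow-frozen (horizontal axis), of the brightest probe of each gene in the member list and in the 5 lists around it, 1 point per gene; filled points have an unadjusted p under 0.05, vertical bars are list medians, and the vertical scatter has no meaning. The members scatter on both sides of a median of -0.0028, and the largest difference in size is that of HMOX2 at -0.77.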

How the data were processed

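Per the methods, RNA of each pool was amplified, labelled and hybridised against unfrozen control RNA on a custom array of bovine embryo transcripts. The authors deposited 4 files, and each pairs 1 vitrified channel with 1 slow-frozen channel. By the methods these channels came from different slides and were not hybridised together, so a file is not 1 physical array. In them, per the file headers, intensity is the median brightness of a spot and of its local background, neither subtracted nor normalised. The authors also deposited log2 ratios of Cy5 to Cy3, which matched plain background subtraction with loess (r from 0.99994 to 0.99999, medians from -0.0012 to 0.0019) and served as an alternative.

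Here normexp (offset 50) corrected the background. Loess was then run within files (control spots at weight 0), and the 8 channels were quantile normalised. A probe was kept where at least 3 of the 4 pools of a group exceeded the 95th percentile of 153 negative control spots, which kept 30034 probes. Another 13760 were left out, 58 of them marked as ignored. Symbols came from the platform table, and 1524 were updated through the ARS-UCD2.0 gene table to match the lists.

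Groups were compared on log2 values by limma 3.58.1 (R 4.3.3), two-sided, with an additive term for dye. Only the limma fit was tested on simulated data, with independent pools. The background correction, normalisation and filter were not. Pools of 1 group came from separate production cycles per the methods, and 4 per group limit the precision. The members and lists were chosen with earlier results of these data known. The brightest kept probe stood for a gene. Named were all members, the 3 genes of each other list with the smallest p and the 3 genes most like each member. Alternatives were other background corrections, normalisations and filters, a replicate block, the file as a random block, the mean of the probes, the deposited ratios and leaving out each pool. The array files name no genome build, so no positions are given.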

Additional observations from a re-analysis of the deposited data

Results flagged for a closer look

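In 46 groups of 4 pools, 1 for each tested member probe and treatment, the gap of the most extreme pool to its neighbour was set against the range of the group. The ratio exceeded Dixon's 95% critical value for 4 samples in 4 of these groups, and chance gives about 1 such group in 20. In PRDX1 (EMBV3_40942) slow-frozen replicate 3 measured 15.64 and the next pool 14.96, a ratio of 0.909. In TXN (EMBV3_31232) vitrified replicate 3 measured 14.36 and the next 13.81, a ratio of 0.996, with the other vitrified pools nearly equal. In PRDX6 (EMBV3_34889) vitrified replicate 4 measured 12.98 and the next 12.65, a ratio of 0.942. In TXN2 (EMBV3_33230) slow-frozen replicate 2 was low, at 8.65 with the next pool at 8.96, a ratio of 0.887. None of these 4 probes had an unadjusted p under 0.05 between the groups (limma).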

How the results depend on the processing

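No member gene passed the adjustment or the thresholds of the methods in any of 21 alternative settings. The count of member genes with an unadjusted p under 0.05 (3) was 1 with loess only and 0 with median centring only, 0 to 3 when 1 pool was left out, and 4, with TXNRD1, with no background correction, with no filter on dim probes and with the file as a random block. For the genes of the lists (7) it was 2 with loess only, 3 with median centring only, 4 to 8 when 1 pool was left out and 10 with the file as a random block. By the methods the channels of a file were not hybridised together, so the file block does not stand for a shared array. Its counts here and below carry that limit. Outside the fits without 1 pool, signs turned for PRDX6 with loess only (-0.0682), with the table of ratios (-0.0547) and with the mean of its probes (-0.0912), for PRDX3 with the mean of its probes (-0.0270), for TXN and TXN2 with median centring only (0.0886 and 0.0906), and for PRDX1 without both outlying pools, vitrified replicate 3 and slow-frozen replicate 2, a setting chosen after seeing the data (0.0261). When 1 pool was left out the differences ranged from -0.27 to 0.0611 for PRDX1, from -0.0062 to 0.23 for PRDX2, from -0.0738 to 0.18 for PRDX3, from -0.12 to 0.10 for PRDX6, from -0.21 to 0.0676 for TXN and from -0.12 to 0.0379 for TXN2. Median centring moved the median of all probes by no more than 0.04.

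Over all probes, 1 passed the adjustment; 0 did with no background correction, with quantile normalisation only, with median centring only, with probes above the negative controls in all pools, with the replicate block, with the table of ratios and without both outlying pools, and 0 to 1 when 1 pool was left out. The count at an unadjusted p under 0.05 (1444) was 841 with loess only, 800 with median centring only and 2709 with the file as a random block, and 870 to 1787 when 1 pool was left out. The 57 probes past the thresholds of the methods became 37 without both outlying pools and 32 to 103 when 1 pool was left out. With group means removed, pools with the same replicate number did not clearly vary together (r of 0.16, 0.09, -0.03 and 0.09 for numbers 1 to 4). Pairs with different numbers had r from -0.31 to 0.14, so only the value of number 1 lay above all of them. These values do not settle which pools share a cycle. With the replicate block PRDX4 was again 0.44, with an unadjusted p above 0.05 (limma). The causes of these changes were not tested. Close to the negative controls a difference can be compressed, which was not tested. The TXNIP probe was dim but exceeded the negative controls in all pools. Its difference was 0.62 with plain background subtraction and 0.57 with no background correction.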
